A study of Mus musculus with 54 samples.

Results

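Far intergenic peaks are the ChIP-seq peaks of mouse KRAB zinc finger proteins (KZFPs) whose summit lay outside every annotated gene and more than 100 kb from every annotated transcription start. They were 562 of the 24975 peaks on chromosomes in the 42 deposited peak lists, or 2.25% (exact 95% binomial interval 2.07% to 2.44%). Genes and starts were those of the GENCODE annotation of GRCm39 (release vM39), which holds 78252 genes and covers 56.8% of the assembled sequence with gene bodies. The 42 KZFPs are encoded in the Chr4 cluster of the C57BL/6J strain (BL6J). Each was over-expressed from a transposon vector with a hemagglutinin (HA) tag in the mouse embryonal carcinoma line F9, and chromatin was precipitated with an antibody to the tag. There is 1 library per KZFP, spread over 5 batches of 3, 3, 13, 20 and 3 KZFPs, and the peaks were called against 1 mixed input per batch. Cells with the empty vector (4 libraries) served only to remove peaks, and 16 lists came from batches with no such library of their own. The sites therefore describe where a tagged, over-expressed protein was recovered in 1 cell line, and not binding at the level of the endogenous protein. The lists carry no read numbers, so the depth behind a single peak is unknown here and the precision of a share is set by the number of peaks. Intervals cover counting error only.

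KZFPs bind DNA through an array of zinc fingers, in which a few amino acids of each finger contact the bases, and they recruit the co-repressor TRIM28 through the KRAB domain. Their best known targets are transposable elements (TEs): endogenous retroviruses (ERVs), with long terminal repeats (LTRs) around an internal region, and LINE-1 elements. Such elements are found both inside genes, mostly in introns, and in gene-poor stretches of chromosomes called gene deserts, where far intergenic peaks lie by definition.

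The sequences below surround the motif within the highest far peak of a KZFP. They are given for the KZFPs with at least 100 peaks and 5 far peaks. The peak had to hold the motif of that KZFP, spelled with A, C, G and T alone. Capitals mark the motif, which was found on these same peaks by the study with MEME. Each sequence is read from GRCm39, 5′ to 3′, on the strand that carries the motif. The sequences were placed on the motif and not on the summit. For Zfp982 the summit lies 45 bp from the middle of the motif, and for Zfp_MB014 it lies 72 bp away. For these KZFPs the summit is outside the printed sequence.
Zfp982, chr15:21756520-21756579, minus strand: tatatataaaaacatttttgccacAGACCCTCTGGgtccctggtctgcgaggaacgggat
Zfp_MB026, chrX:118172980-118173039, plus strand: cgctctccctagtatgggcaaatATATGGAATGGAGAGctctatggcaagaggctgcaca
Zfp_MB028, chr1:112193968-112194027, minus strand: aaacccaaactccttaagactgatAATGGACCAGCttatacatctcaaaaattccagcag
Zfp_MB014, chr11:57236827-57236884, plus strand: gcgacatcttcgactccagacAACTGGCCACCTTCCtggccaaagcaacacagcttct
Zfp_MB022, chr3:13233558-13233617, plus strand: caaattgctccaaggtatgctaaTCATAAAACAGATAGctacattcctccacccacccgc
Zfp_MB023, chr17:89794087-89794146, minus strand: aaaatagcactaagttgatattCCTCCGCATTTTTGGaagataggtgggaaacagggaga
Zfp988, chr8:52055218-52055277, plus strand: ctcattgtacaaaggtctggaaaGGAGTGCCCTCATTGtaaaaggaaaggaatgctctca
Zfp_MB029, chr4:122234052-122234111, plus strand: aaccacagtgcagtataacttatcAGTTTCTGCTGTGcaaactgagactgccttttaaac
Zfp_MB031, chr4:122234055-122234114, minus strand: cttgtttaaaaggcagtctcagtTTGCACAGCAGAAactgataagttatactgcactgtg
The last pair is 1 site read from both strands. Zfp_MB029 and Zfp_MB031 share their zinc finger array, and their motifs overlap in reverse complement. Zfp_MB024, which also has that array, had its highest far peak on the same site and the same motif as Zfp_MB029. Some of these places are not unique. Without mismatch, the 100 bp around the summit occurred 167 times in the assembly for Zfp_MB028, 9 times for Zfp_MB023 and 4 times for Zfp_MB026. For Zfp_MB029 and Zfp_MB031 they occurred 2 times. Reads that lie within identical copies cannot be told apart, so the place of these peaks is less certain. Only these 100 bp were compared, and whether the other read of a pair settles the place was not tested.

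As a share of the pooled peaks of KZFPs with other arrays, these motifs were rare. Within 200 bp centred on the summit, on either strand and without mismatch, AGACCCTCTGG was present in 77.8% of the 45 far peaks of Zfp982, in 20.2% of its 4700 nearer peaks, and in 0.0544% of the 20230 peaks of KZFPs with other arrays. ATATGGAATGGAGAG was present in 55.3% of the 76 far peaks of Zfp_MB026, in 23.3% of its 4029 nearer peaks and in 1 of 20870 peaks of other arrays. AACTGGCCACCTTCC was in 73.2% of the 41 far and 30.2% of the 1209 nearer peaks of Zfp_MB014, and in 0 of 23725 peaks of other arrays. AATGGACCAGC was in 78.3% of the 46 far and 70.0% of the 1377 nearer peaks of Zfp_MB028, and in 1 of 23462 peaks of other arrays. The highest share in other arrays was that of the Zfp_MB022 motif, with 151 of 24610 peaks (0.614%). In its own list it was in 6 of 7 far and 236 of 358 nearer peaks. The Zfp988 motif was in 2 of 6 far and 5 of 176 nearer peaks of its own list, and in 7 of 24793 peaks of other arrays. Peaks with the Zfp_MB022 or the Zfp988 motif were thus not confined to the list of that KZFP.

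Far intergenic peaks were not spread evenly over the KZFPs. Zfp_MB016, which the study assigned to LTRs of IAP elements (intracisternal A-particles, an ERV family), gave 199 of the 562, or 35.4%, while its list holds 24.7% of all peaks. Zfp_MB026 gave 76 (13.5% of far and 16.4% of all peaks) and Zfp_MB028 gave 46 (8.19% and 5.70%). Zfp982 gave 45 (8.01% and 19.0%). Zfp_MB014, the largest list assigned to LINE-1 elements, gave 41 (7.30% and 5.01%). The 6 longest lists together gave 421, or 74.9%. They hold 18845 of the 24975 peaks, and their pooled far share of 2.23% was close to the 2.25% of all lists. A further 30 lists had at least 1, and 6 lists had none.

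As a share of each list, far intergenic peaks ran from 0 to 9.52%, with a median of 1.88% and a mean of 2.58% ± 2.39 (SD, n = 42 lists). The same rule is met by 3.28% of the assembled sequence (86.8 Mb). Among the KZFPs with at least 100 peaks, the shares were 5.56% for Zfp993, 5.38% for Zfp_MB029, 4.88% for Zfp_MB031, 4.58% for Zfp992 and 4.58% for Zfp_MB024. These 5 KZFPs and Zfp_MB027, with 8.51% of 94 peaks, share 1 array, and the study assigned the internal region of the ERV ERVB4_1B-I_MM to all 6. Next came Zfp988 with 3.30%, Zfp_MB014 with 3.28%, Zfp_MB028 with 3.23% and Zfp_MB016 with 3.23% (interval 2.80% to 3.70%). Shares between 1.85% and 2.68% were found for Zfp_MB005, Zfp_MB036, Zfp_MB011, Zfp_MB023, Zfp_MB022 and Zfp_MB026. Lower ones were 1.75% for Zfp_MB035, 1.49% for Zfp981, 1.22% for Zfp_MB001, 0.980% for Zfp6001, 0.948% for Zfp982, 0.885% each for Zfp6002 and Zfp980, 0.833% for Zfp_MB003, 0.588% for Zfp_MB018 and 0.244% for Zfp_MB020. Rex2 had 0 of 128 peaks, which allows a share of up to 2.34% by a floor of 3 counts (the exact interval ends at 2.84%). The 16 shorter lists ranged from 0 to 9.52%, the highest being 4 of 42 peaks for Zfp979, assigned to LINE-1.

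The exact interval lay above the sequence share for 1 list, Zfp_MB027 (3.75% to 16.1%), and below it for 7 lists: Zfp982 (0.693% to 1.27%), Zfp_MB026, Zfp_MB001, Zfp_MB003, Zfp_MB018, Zfp_MB020 and Rex2. For the other 34 it included that share. The intervals of some long lists did not overlap: that of Zfp_MB016 lay above those of Zfp_MB026 (1.46% to 2.31%), Zfp_MB001 (0.666% to 2.03%) and Zfp982. These intervals treat peaks as independent counts, while the 199 far peaks of Zfp_MB016 lay in 130 stretches and each KZFP has 1 library. No test of a difference between single lists was made.

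**Figure D1:**
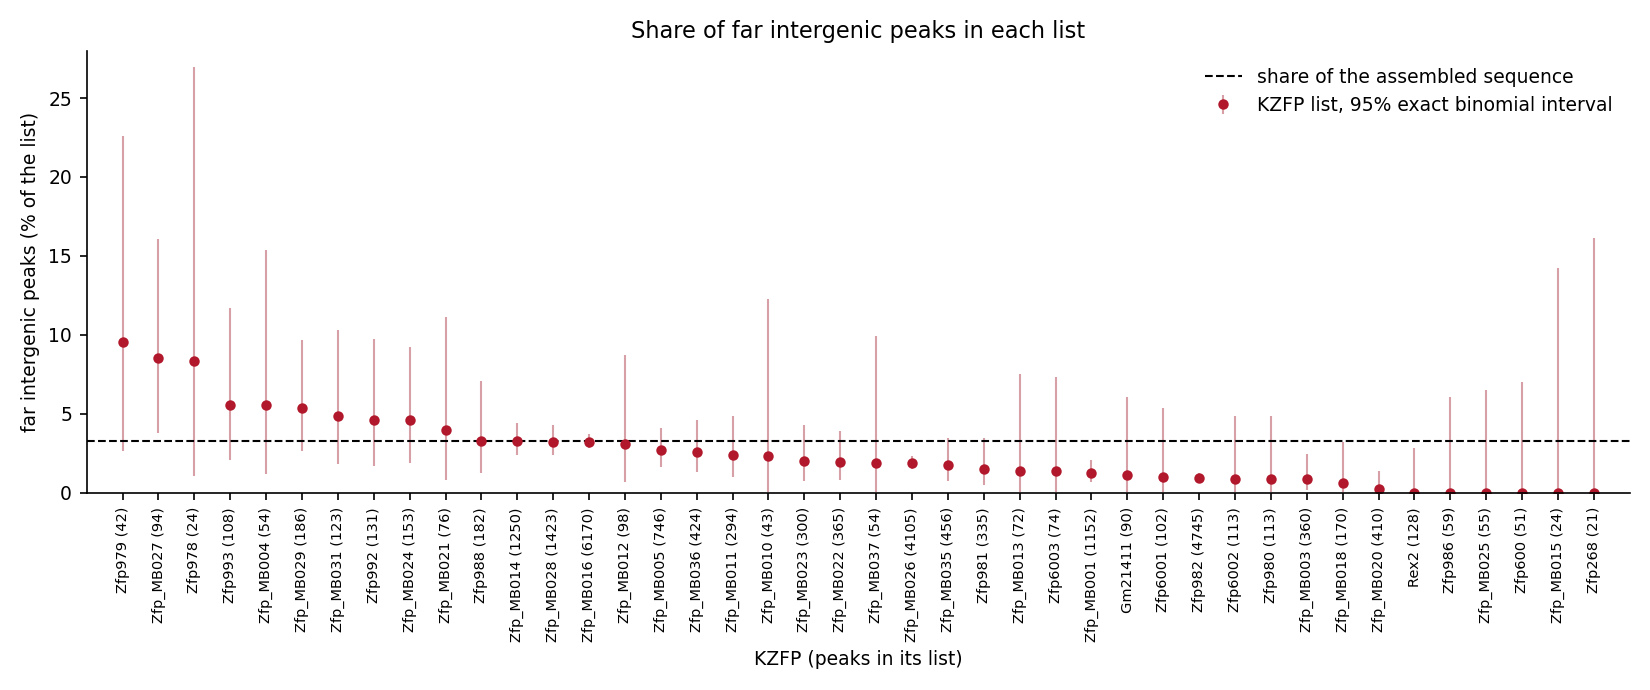
Far intergenic peaks as a percentage of each of the 42 lists (points) with exact 95% binomial intervals (lines), ordered by share, with the number of peaks of the list in brackets. The dashed line is the share of the assembled sequence that meets the same rule, 3.28%, and most intervals cross it.

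Pooled over all lists, the density of peaks outside genes was highest close to transcription starts and changed little across the limit of 100 kb. There were 6.52 peaks per Mb between 100 and 110 kb from a start, 7.02 between 110 and 150 kb, 5.59 between 150 and 200 kb and 6.05 beyond 200 kb. At shorter distance the densities were 6.98 between 90 and 100 kb, 6.29 between 50 and 90 kb, 8.32 between 10 and 50 kb and 10.5 within 10 kb. The median distance of the 562 peaks was 133 kb, 81 lay beyond 200 kb and 4 beyond 300 kb. The 5 closest to the limit lay 100056 to 100414 bp from a start and had 10.5-fold to 128-fold enrichment. The 5 intergenic peaks just short of it lay at 99819 to 99965 bp with 5.91-fold to 12.6-fold enrichment. These folds cannot be compared across the limit, since they come from different lists. Those beyond it are from lists with a cutoff of 10-fold. Those short of it include overlapping peaks of Zfp_MB011, Zfp981 and Zfp_MB013, whose lists have a cutoff of 5-fold. The start nearest to a far peak was that of a lncRNA gene for 214 peaks (38.1%), a processed pseudogene for 201 (35.8%) and a protein-coding gene for 57 (10.1%). The same shares are not given here for nearer peaks or for far intergenic sequence, so these show no preference of far peaks. When only protein-coding and lncRNA genes were counted, 6.41% of all peaks met the rule.

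The 3 peaks farthest from any start were a Zfp_MB016 peak at chrX:64556824-64557338, 423 kb from Gm14668 and 24.2-fold enriched, and peaks of Zfp_MB016 and Zfp982 on chromosome 18, 403 kb from Gm31086 (18.6-fold) and 368 kb from Gm50084 (20.8-fold). All 3 belonged to the largest sequence family of their list.

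KZFPs whose array has no identical match in the other strains that the study compared had a lower mean share of far intergenic peaks than the others. The mean was 1.67% ± 1.72 (SD, n = 27) for the arrays unique to BL6J, against 4.20% ± 2.60 (SD, n = 15) for the rest, a difference of -2.53 percentage points (adjusted p = 0.00225, two-sided permutation test over KZFPs, Benjamini-Hochberg over 9 tests). The groups overlapped, with 0 to 8.33% against 0.244% to 9.52%. The rest holds all 6 KZFPs with the ERVB4_1B-I_MM array, and with 1 value per distinct array the difference was -1.48 points (adjusted p = 0.0780, permutation test). Pooled over peaks, the order turned round, with 2.40% of 16485 peaks for the unique arrays and 1.97% of 8490 for the rest, among which Zfp982 alone has 4745 peaks. With a limit of 200 kb the difference changed direction, to 0.22 points (adjusted p = 0.455, permutation test, 42 lists). Within batch 3 it was -1.93 points (adjusted p = 0.188, exact permutation test), and within batch 4 -3.14 points (adjusted p = 0.0103, permutation test, 20 lists). Over 9 alternatives, not counting those chosen after seeing the data, the difference was negative in 8 and passed the test in 6.

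Lists assigned to LINE-1 had a mean share of 3.91% ± 3.54 (SD, n = 8), and those assigned to LTRs or ERVs 2.57% ± 1.90 (SD, n = 30). The difference of 1.34 points did not pass the test (adjusted p = 0.171, exact permutation test, two-sided), and it was -0.62 points within batch 3. With 1 value per distinct array and class (30 values) it was 1.90 points (adjusted p = 0.0483, exact permutation test). The array shared by Zfp979 (LINE-1) and Zfp_MB021 (LTR) has a value in both classes there. So does the array shared by Zfp_MB003 (LINE-1) and Zfp_MB011 (ERV), so these values are not all from separate arrays. The study made these assignments on the same peaks, so the groups are not independent of the lists. The 4 KZFPs with no assigned element had no far intergenic peak among 189, while the share over all lists was 2.25%. Their lists hold 24 to 59 peaks, and the exact intervals end between 6.06% and 14.2%, so these zeros do not show a lower share.

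Height was compared inside each list as the median fold enrichment over input of far and of nearer peaks, for the 20 lists with at least 5 of each. The list medians averaged 16.5-fold ± 4.99 for far peaks and 15.9-fold ± 4.56 for nearer peaks (SD, n = 20 lists), and the far median was the higher one in 13 of 20 lists. On the log2 scale the mean difference was 0.04 ± 0.24 (SD), and it did not pass the test (adjusted p = 0.521, two-sided sign-flip permutation test over lists). The far and nearer medians were 20.1-fold and 16.9-fold for Zfp_MB016, 18.2-fold and 17.1-fold for Zfp_MB026, 14.9-fold and 13.7-fold for Zfp_MB028, 18-fold and 16.1-fold for Zfp982, and 17.2-fold and 16.2-fold for Zfp_MB014. In the opposite direction stood Zfp_MB001 with 12.3-fold and 15.1-fold, and Zfp_MB027 with 16.3-fold and 24.9-fold. Zfp988 had 23.7-fold over 6 far peaks and 14.9-fold over 176 nearer peaks, the largest difference upward (0.53 between the medians of the log2 values, which the test used).

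The call on height changed with the distance limit and with the genes counted, which also changed the lists that could be tested. With a limit of 50 kb the difference was 0.13 over 31 lists (adjusted p = 0.00657), and with only protein-coding and lncRNA genes counted it was 0.11 over 28 lists (adjusted p = 0.0389, sign-flip permutation test in both). Against nearer peaks outside genes alone it was -0.0095 (adjusted p = 0.862, sign-flip permutation test).

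Pooled over lists of different scale and without a test, an enrichment of at least 50-fold was reached by 33 of the 562 far peaks (5.87%) and by 1432 of the 24413 nearer peaks (5.87%). The highest far peak of all was the one of Zfp_MB026 at chrX:118172400-118173483, with 167-fold enrichment, 150 kb from Gm14926 and rank 21 of the 4105 peaks of its list. Zfp_MB035 reached 94.3-fold at chr18:18983072-18984568 (rank 13 of 456), Zfp_MB016 83.4-fold at chrX:118082479-118083604 (rank 122 of 6170) and Zfp_MB029 78.1-fold at chr4:122233723-122234331 (rank 22 of 186). Zfp982 reached 56.7-fold at chr15:21756161-21756875 (rank 197 of 4745), Zfp988 54.1-fold at chr8:52054971-52055730 (rank 10 of 182), Zfp_MB014 52.0-fold at chr11:57236522-57237179 (rank 27 of 1250) and Zfp_MB028 47.5-fold at chr1:112193505-112194600 (rank 26 of 1423). The Zfp_MB014 peak lies between Gria1, which encodes a glutamate receptor subunit, 170 kb to its left, and Gm12242, 103 kb to its right. For the other KZFPs with at least 100 peaks and 5 far peaks the highest far peak was between 5.68-fold (Zfp981) and 46.3-fold (Zfp_MB024). None of these KZFPs had its overall highest peak far from genes. Among all lists, Zfp_MB021 (76 peaks) did, with 81.0-fold far from genes and at most 43.8-fold nearer. Folds are relative to the input of the batch and are on 1 scale only within a list.

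The median width of far peaks was below that of nearer peaks in 12 of 20 lists. The list medians averaged 503 bp ± 161 for far peaks and 538 bp ± 162 for nearer peaks (SD, n = 20), a log2 difference of -0.12 ± 0.24, which missed the threshold after adjustment (p = 0.0407, adjusted p = 0.0610, sign-flip permutation test). Zfp982 had medians of 715 and 896 bp, Zfp_MB011 of 230 and 375 bp, Zfp992 of 367.5 and 507 bp, and Zfp_MB022 of 274 and 365.5 bp. Zfp_MB016 (550 and 559 bp) and Zfp_MB028 (753.5 and 742 bp) differed little, and Zfp_MB026 had 532.5 and 498 bp. With 1 value per distinct array the difference was -0.15 (adjusted p = 0.0346), and leaving out any of Zfp988, Zfp993, Zfp_MB024, Zfp_MB026 or Zfp_MB029 gave adjusted p between 0.0325 and 0.0480 (permutation tests).

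**Figure D2:**
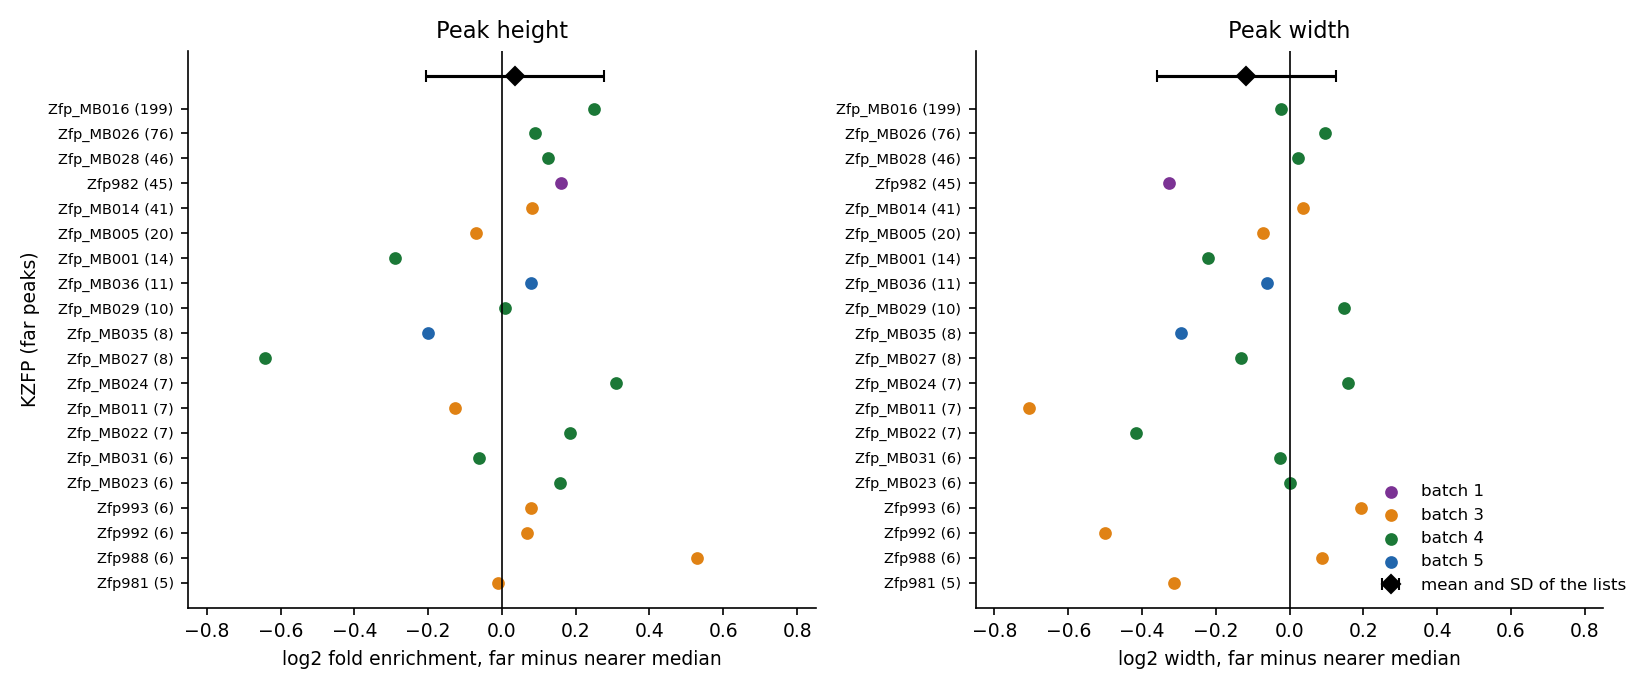
Difference between the medians of far and nearer peaks in each of the 20 lists (points, coloured by batch), in log2 fold enrichment (left) and log2 width (right), ordered by the number of far peaks. The diamonds and bars are the mean and SD of the lists, 0.04 ± 0.24 for height and -0.12 ± 0.24 for width, and the lists of batches 3 and 4 lie on both sides of zero in each panel.

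Over all 562 far peaks the width ran from 183 to 3513 bp, with a median of 572.5 bp, against 595 bp for nearer peaks. Of the 8 widest far peaks, 7 lay in 1 stretch near the end of chromosome 4 beside Dhrsx, a dehydrogenase gene. At chr4:156505809-156509321, 6 lists had a peak of 3082 to 3513 bp. Zfp_MB021 had the highest, at 81.0-fold, followed by Zfp_MB027 (19.3-fold), Zfp_MB012 (18.8-fold), Zfp_MB029 (11.7-fold), Zfp979 (11.1-fold) and Zfp993 (10.7-fold). Their summits were not at 1 position but between 156507317 and 156509116. These 6 KZFPs have 3 different arrays and none of the summit windows belonged to the largest sequence family of its list. The read alignments were not used here, and whether this place differs in copy number between the cells and the assembly was not tested.

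The clearest difference between far and nearer peaks was in their sequence. A far peak was more likely to hold the motif of its KZFP. On average over the 20 lists, 54.1% ± 25.1 of far peaks and 34.1% ± 23.2 of nearer peaks held it within 200 bp centred on the summit (SD, n = 20). The difference of 20.1 points ± 16.6 was positive in 18 of 20 lists (adjusted p = 0.00036, sign-flip permutation test). The exceptions were Zfp_MB027 (62.5% of 8 far and 72.1% of 86 nearer peaks) and Zfp_MB005 (10.0% of 20 and 18.9% of 726). The motifs were found by the study on these same peaks, far and nearer together, so the shares themselves are not independent of the lists. Among the 20 lists are the 6 with the ERVB4_1B-I_MM array, which have many far peaks in common and are not independent of each other. With 1 value per distinct array (n = 15) the difference was 22.3 points (adjusted p = 0.00103, sign-flip permutation test).

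Zfp_MB016 had its motif in 70.9% of far peaks, in 55.0% of nearer peaks outside genes and in 25.1% of peaks in genes. For Zfp982 the 3 shares were 77.8%, 44.1% and 12.2%, for Zfp_MB014 73.2%, 36.3% and 25.2%, and for Zfp_MB026 55.3%, 41.5% and 12.4%. In 4 of the 20 lists far peaks had a lower share than nearer peaks outside genes: Zfp_MB028 (78.3%, 85.9% and 53.0%), Zfp_MB027 (62.5%, 75.8% and 60%), Zfp_MB011 (14.3%, 16.7% and 5.74%) and Zfp_MB005 (10.0%, 19.2% and 18.6%), the last with its lowest share far from genes. Averaged over the 20 lists they were 54.1%, 43.0% and 26.1%. Compared with nearer peaks outside genes only, the difference was 11.2 points and still passed the test (adjusted p = 0.00814, sign-flip permutation test), and over 13 alternatives it ran from 11.2 to 30.1 points with adjusted p of 0.00018 to 0.455.

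Far peaks also fell more often into the largest sequence family of their list. The 200 bp around every summit of all lists were compared by alignment, with a match taken as at least 100 bp at 80% identity or more. The sequence with most matches among those not yet placed formed a family with these matches, and this was repeated. Sequences that match can therefore fall in different families. On average 63.0% ± 25.1 of far peaks and 44.0% ± 30.6 of nearer peaks belonged to the largest family of their list (SD, n = 20), a difference of 19.0 points ± 21.8, positive in 16 of 20 lists (adjusted p = 0.00236, sign-flip permutation test). For Zfp982, assigned to the LTRs RLTR13B1 and RLTR13B4, 86.7% of far and 19.4% of nearer peaks did. For Zfp_MB016 the shares were 89.4% and 51.1%, for Zfp_MB014 80.5% and 39.0%, for Zfp_MB026 63.2% and 25.1%, and for Zfp_MB028 84.8% and 70.6%. Against nearer peaks outside genes only, the mean difference fell to 7.63 points and the call was lost (adjusted p = 0.138, permutation test).

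Far peaks lay more often on sequence that has identical copies elsewhere. The 100 bp centred on the summit, about 1 read, occurred at least once more in the assembly without mismatch for 279 of 562 far peaks (49.6%) and for 6413 of 24413 nearer peaks (26.3%). Per list the means were 34.9% ± 25.7 and 21.9% ± 17.4 (SD, n = 20), a difference of 13.0 points ± 16.0, positive in 16 of 20 lists (adjusted p = 0.00225, sign-flip permutation test). The share was 73.9% and 67.1% for Zfp_MB028, assigned to IAPEz-int, 68.3% and 38.9% for Zfp_MB014, 60.5% and 25.7% for Zfp_MB026, 60.3% and 40.4% for Zfp_MB016, and 4.44% and 2.85% for Zfp982. Of the far peaks, 200 had at least 10 copies and 96 at least 100, up to 1756 for a Zfp_MB011 peak at chr3:46689569-46689925. Since the authors kept 1 of several equally good alignments at random, the place of such a peak is less certain than that of a unique one. When peaks with an exact copy were left out, the motif difference was 19.2 points over 16 lists (adjusted p = 0.00484, permutation test). Against nearer peaks outside genes only, the difference in copies was 5.28 points and did not pass the test (adjusted p = 0.138, permutation test).

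GC content moved the other way. The 200 bp around the summit averaged 46.2% ± 4.96 GC for far peaks and 48.7% ± 6.72 for nearer peaks over the 20 lists (SD), a difference of -2.47 points ± 3.97, negative in 15 of 20 lists (adjusted p = 0.00758, sign-flip permutation test). Zfp982 had the largest difference, with 47.3% and 62.4%, followed by Zfp_MB011 with 53.4% and 60.6%. Zfp_MB016 had 51.1% and 53.8%, while Zfp_MB014 had 54.7% and 51.9% and Zfp_MB026 48.8% and 48.7%. Against nearer peaks outside genes only, the difference was -1.01 points (adjusted p = 0.138, permutation test).

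**Figure D3:**
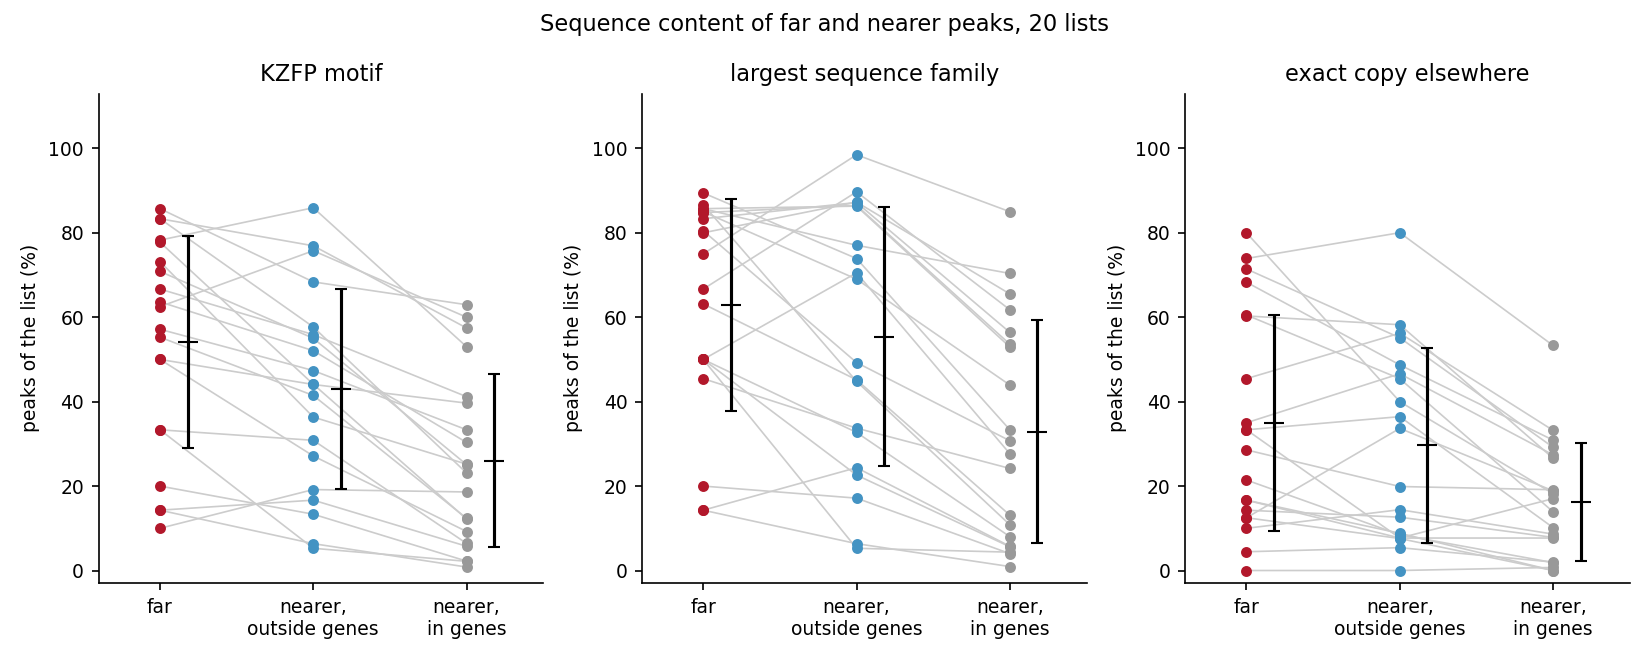
For each of 20 lists, the percentage of peaks that hold the KZFP motif (left), belong to the largest sequence family of the list (middle) or have an exact copy elsewhere (right), for far peaks, nearer peaks outside genes and nearer peaks in genes. Lines join the values of a list and bars are the mean and SD. The mean motif share is 54.1% for far peaks, 43.0% for nearer peaks outside genes and 26.1% for peaks in genes.

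The overlap with KZFPs of other arrays did not pass the test. At least 1 bp of overlap with a peak of a KZFP of another array was found for 124 of 562 far peaks (22.1%) and 5480 of 24413 nearer peaks (22.4%). Per list the means were 28.4% ± 25.9 for far and 38.1% ± 21.7 for nearer peaks (SD, n = 20), a difference of -9.61 points ± 21.7, negative in 14 of 20 lists (adjusted p = 0.0793, sign-flip permutation test). Without Zfp_MB036 it was -12.3 points (adjusted p = 0.0135, permutation test). The lists at both ends were Zfp981, with 0 of 5 far peaks and 52.7% of nearer peaks, and Zfp_MB036, with 10 of 11 far peaks (90.9%) and 49.6% of nearer peaks. Most far peaks of Zfp_MB005 (17 of 20) and few of Zfp_MB028 (4 of 46), Zfp982 (2 of 45) or Zfp_MB014 (1 of 41) overlapped a list of another array.

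Most of the overlaps of Zfp_MB005 (16 of 17) and all 10 of Zfp_MB036 were with Zfp_MB016, and the study assigned IAP LTRs to all 3. Of the far peaks of Zfp_MB005, 16 of 20 (80%) overlapped a Zfp_MB016 peak, against 450 of 726 nearer peaks (62%). Of those of Zfp_MB036, 10 of 11 (90.9%) did, against 185 of 413 nearer peaks (44.8%). For Zfp_MB026 the numbers were 6 of 76 (7.89%) and 135 of 4029 (3.35%). No test was made on single pairs. Of the 204 merged far regions of Zfp_MB016, Zfp_MB005 and Zfp_MB036, 26 were in 2 of the 3 lists and none was in all 3.

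Most pairs of KZFPs with the same array and enough far peaks were of 1 array. In the 16 of 21 same-array pairs whose smaller list has at least 5 far peaks, 75.3% ± 25.8 of its far peaks and 79.8% ± 20 of its nearer peaks overlapped the other list (SD over pairs, which share libraries). Of these pairs, 15 are among the 6 lists with the ERVB4_1B-I_MM array, and the other is Zfp_MB011 with Zfp_MB003. In the 209 pairs of different arrays whose smaller list has at least 5 far peaks, the means were 2.44% ± 10.5 and 3.96% ± 9.82, and 185 of these pairs shared no far peak. Many of these lists have so few far peaks that a pair can share none at the nearer rate. The count of 185 therefore does not show less sharing far from genes. The single far peak of Gm21411 was also in the list of Zfp_MB028, and the 1 far peak each of Zfp6001 and Zfp6003 was in that of Zfp_MB035. Of 4 far peaks of Zfp979, 2 were in the list of Zfp_MB021. In the pair Zfp_MB011 and Zfp_MB003 0 of 7 far peaks and 42 of 287 nearer peaks (14.6%) were shared, the only same-array pair with no shared far peak.

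The 6 KZFPs with the ERVB4_1B-I_MM array had 43 far peaks in only 12 merged regions, of which 4 were in all 6 lists. At chr4:122233716-122234585, 115 kb from Gm12895, the fold enrichments were 78.1 for Zfp_MB029, 46.3 for Zfp_MB024, 34.9 for Zfp_MB031, 33.4 for Zfp993, 33.0 for Zfp_MB027 and 21.8 for Zfp992. The site printed above for Zfp_MB029 and Zfp_MB031 lies in this region. In each of the 6 lists the 100 bp around the summit here occurred 2 times in the assembly, so this place is less certain than a unique one. The other regions in all 6 lists were chr18:72750500-72751396, with 23.5-fold to 63.8-fold enrichment, beside Dcc, the gene of a netrin receptor, chr15:49901725-49902462, with 19.2-fold to 57.4-fold enrichment, and chrX:14308824-14309412, with 10.4-fold to 25-fold enrichment. Zfp_MB029 was the highest and Zfp992 the lowest of the 6 in each of them. A further 3 regions were in 4 of the lists, among them one at chr5:18286601-18287188 near Gnat3, the gene of a taste receptor G protein, at 12.4-fold to 26.1-fold. The region beside Dhrsx was in 3 lists and 4 regions were in 1 list each. The 6 KZFPs came from batches 3 (Zfp992 and Zfp993) and 4, so each is scaled to the input of its batch. Since they share most of their far peaks, the 6 far shares given above are not independent values.

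**Figure D4:**
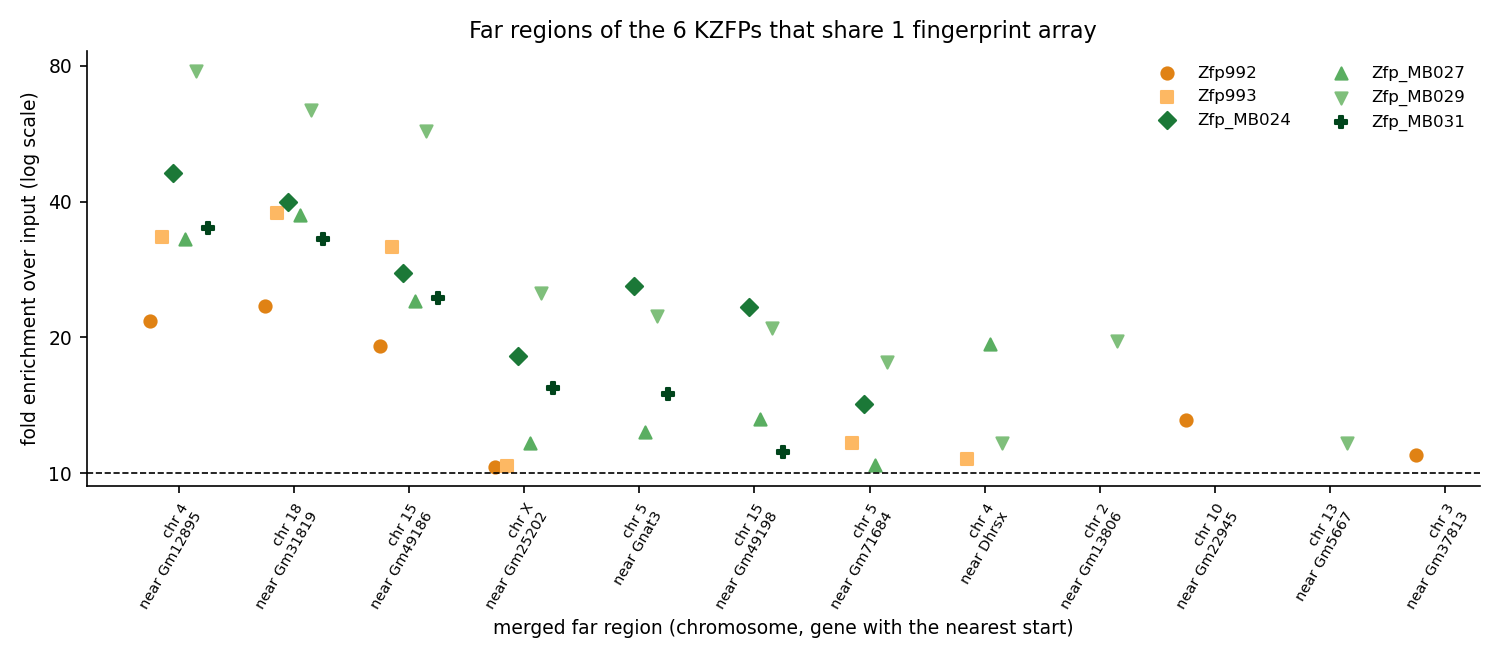
Fold enrichment over input (log axis) at the 12 merged far regions of the 6 KZFPs with 1 array, ordered by the number of lists, with a symbol for each KZFP and the batch 3 lists in orange. The dashed line is the cutoff of 10-fold. The 4 regions at the left are in all 6 lists, with Zfp_MB029 highest at 25-fold to 78.1-fold.

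Merged over all lists, the 562 peaks made 463 regions, of which 404 were in 1 list and 59 (12.7%) in at least 2, against 2347 of 20650 regions (11.4%) of nearer peaks. At least 3 different arrays were found at 9 far regions (1.94%) and at 456 nearer regions (2.21%), and at least 5 arrays at 1 far region and 65 nearer ones. That far region was chr8:98734559-98735486, with Zfp_MB004 at 21.2-fold, Zfp_MB012 at 15.3-fold, Zfp_MB010 at 10.3-fold, Zfp_MB003 at 7.1-fold and Zfp979 at 5.73-fold. Of these 5 KZFPs all but Zfp_MB012, assigned to the LTR LTRIS2, were assigned to LINE-1. The widths were alike, 882 to 925 bp, while the summits lay between 98734707 and 98735338. The nearest start, 114 kb away, was that of Gm63744.

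The region with 4 arrays was chr3:13233450-13233907, 120 kb from Gm37813, where Zfp_MB022 had 30.7-fold, Zfp_MB026 14.7-fold, Zfp_MB012 13.2-fold and Zfp992 11-fold enrichment. Zfp_MB022, Zfp_MB012 and Zfp992 were all assigned to LTRIS2, and the summits of these 3 lay within 10 bp, at 13233598 to 13233608, in the sequence printed above for Zfp_MB022. The Zfp_MB026 summit was at 13233692. At chrX:118082479-118083604 Zfp_MB016 had 83.4-fold, Zfp_MB026 31.6-fold and Zfp_MB005 21.9-fold enrichment, with the summits of Zfp_MB016 and Zfp_MB005 1 bp apart. At chr18:18983072-18984568 all 5 KZFPs assigned to the ERV RLTR4 had a peak: Zfp_MB035 at 94.3-fold, Zfp6002 at 25.3-fold, Zfp6003 at 18.5-fold, Zfp_MB018 at 18.3-fold and Zfp6001 at 18.3-fold. It was the only far peak of each of them but Zfp_MB035, which had 7 more.

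Far intergenic sequence consists of 946 stretches, with a median of 70.0 kb, and 236 of them held a far peak. The stretch with most, 15 peaks of 11 lists, was chr18:18477251-19166255, which includes the RLTR4 site. It was followed by chr15:49876779-50050293 with 11 peaks of 7 lists in 3 merged regions, all but 1 from the KZFPs with the ERVB4_1B-I_MM array. The others were chr14:92058292-92370940 with 10 peaks, of which 6 were from Zfp_MB016, chr4:156490517-156583397 with 9 peaks beside Dhrsx, and chr13:52442388-52583344 with 8 peaks beside Diras2, the gene of a small GTPase. Further stretches with 8 were chr1:7900790-8092796, chrX:14281831-14562973 and chrX:64230445-64879954.

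By chromosome, X had the most far peaks, 66, which were 5.59% of its peaks and 11.7% of all far peaks, with 9.67% of the far intergenic sequence. Chromosomes 1 and 4 had 56 each and chromosome 3 had 53. Relative to far intergenic sequence the numbers were highest on chromosomes 9 (12.3 per Mb), 13 (12.2 per Mb) and 18 (11.6 per Mb) and low on chromosomes 7 (2 peaks, 1.16 per Mb), 19 (3 peaks, 1.76 per Mb) and 17 (7 peaks, 2.73 per Mb). Y had none, with 2.76 Mb of such sequence and 176 peaks in all. Over all chromosomes there were 6.47 far peaks per Mb of far intergenic sequence, against 9.42 peaks per Mb of the whole assembled sequence.

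**Figure D5:**
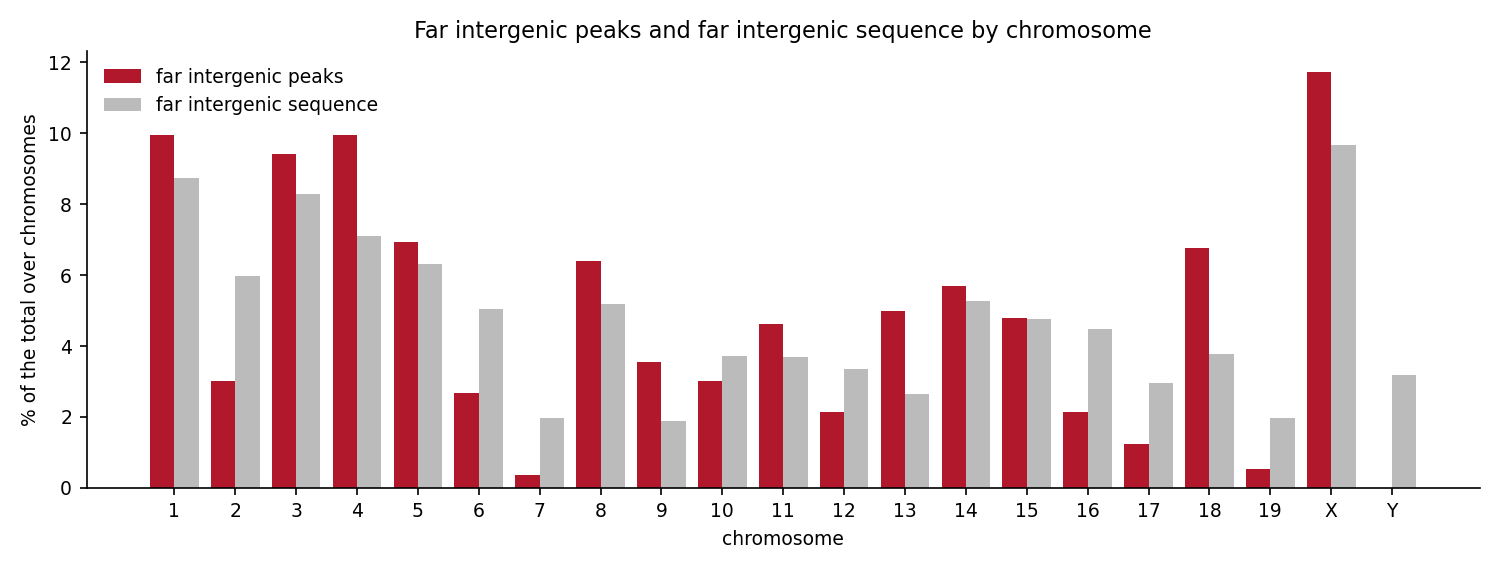
Share of the 562 far intergenic peaks (red) and of the 86.8 Mb of far intergenic sequence (grey) on each chromosome, in percent. Chromosome 4 has 9.96% of the peaks and 7.1% of the sequence, chromosome 2 has 3.02% and 5.97%, and Y has no peak.

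The protein-coding genes that border the far peaks were described by gene lists. A gene with a symbol starting in Cdh or Pcdh (cadherins and protocadherins, cell adhesion molecules) was the protein-coding gene with the nearest start for 55 far peaks (9.79%), close to its share of the far intergenic sequence (9.43%), while the share for nearer peaks was 1.09%. Protocadherin Pcdh9 bordered 13 and cadherin Cdh8 9. Other neuronal adhesion genes, among them Lrrc4c and Sema3d, bordered 18 far peaks (3.20%, against 5.19% of the sequence). Zinc finger genes bordered 4 far peaks (0.712%, against 0.743%), and olfactory and vomeronasal receptor genes bordered none, with 0.0848% and 0.0527% of the far sequence. The single gene with most far peaks was Trps1, which encodes a GATA-type transcription factor, with 18 peaks of 12 lists (3.20% of the peaks and 0.507% of the far sequence). Next was Dsc3, which encodes a desmosomal cadherin outside the symbol list above and lies nearest to the chromosome 18 stretch, with 15 peaks of 11 lists. Shared peaks of the same-array lists enter these numbers more than once.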

How the data were processed

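Read pairs were placed on GRCm39 by the authors with BWA, which kept 1 of several equally good alignments at random. Per library, they ran MACS2 (2.2.7.1 in the submitters' processing notes) with the mixed input of that batch as control. Peaks overlapping any peak of the empty vector libraries were removed, and a q value of at most 0.01 and a fold enrichment of at least 10 were required, or of at least 5 in 10 lists. The deposited fold enrichment over input is a ratio from MACS2 and was used as peak height. The deposited -log10 q served only as an alternative filter. The authors' -log10 p and display score entered no result.

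Peaks on scaffolds (37) were left out, since the annotation used does not cover them. Summits were placed against every gene and transcript start of GENCODE vM39 for GRCm39. Which peaks count as far depends on the release, since lncRNA genes and processed pseudogenes set most nearest starts. Far and nearer peaks of a list were compared by their medians or shares, and the 20 per-list differences were tested by sign-flip permutation (100000 resamples, exact with fewer than 10 lists), with Benjamini-Hochberg adjustment over 9 tests and a threshold of 0.05. Families came from blastn 2.17.0. Fingerprint arrays, assigned elements and motifs were taken from the study's motif table. KZFPs named are those with at least 100 peaks and those in same-array pairs, besides others with a peak in a named region. Peaks named are the highest far peak of each KZFP with at least 100 peaks and 5 far peaks, the 5 regions with most arrays, the 5 fullest stretches and the 3 farthest peaks, and a few more were chosen after their values were seen: the regions of the 6 same-array lists, the widest peaks, the peak with most copies and those at the distance limit. The set of peaks and the lists of genes were chosen with earlier results of these data known. Functions were tested on simulated data. Peaks of 1 list are not replicates, and no KZFP has a second library.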

Additional observations from a re-analysis of the deposited data

Results flagged for a closer look

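Among the 6 KZFPs with the ERVB4_1B-I_MM array, Zfp_MB027 stood apart with a far share of 8.51% (8 of 94 peaks), the other 5 lying between 4.58% and 5.56%. The limit used for such a gap is passed by chance in about 1 of 20 groups of independent values, and these 6 shares are not independent, since the lists share most of their far peaks. Its list is the shortest of the 6, and all 8 of its far peaks were also in the list of Zfp_MB029.

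The 37 peaks on unplaced scaffolds entered no comparison, because no gene annotation was used there.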

How the results depend on the processing

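The alternatives with 1 peak per sequence family and list, with only the lists of a fold cutoff of 10 and without the Y chromosome were chosen after seeing the data. Differences are in log2 units for height and width and in percentage points otherwise. The motif difference stayed positive in 13 of 13 alternatives other than those and passed the test in 10, and GC content, copies and family kept their sign in 12 of 12 and passed in 6, 7 and 7. The share of far intergenic peaks was 6.38% with a limit of 50 kb, 0.324% with 200 kb, 6.41% with protein-coding and lncRNA genes only and 2.63% with a fold of at least 15. With 50 kb, height was 0.13 (adjusted p = 0.00657, permutation test), and with protein-coding and lncRNA genes only it was 0.11 (adjusted p = 0.0389, permutation test). With 200 kb, GC was -2.86, copies 12.7, motif 30.1 and family 44.0 over 5 lists, which cannot reach a p under 0.0625. The differences in far share at 200 kb were -0.12 for LINE-1 minus LTR (38 lists, p = 0.553) and 0.22 for unique arrays minus others (42 lists, p = 0.152, permutation tests). With a fold of at least 15 (10 lists), height was -0.039, overlap 2.32, GC -2.35, copies 11, motif 17.6 and family 23.1. With 1 value per distinct array, width was -0.15 and unique minus others -1.48. LINE-1 minus LTR was 1.90 with 1 value per distinct array and class. In the same setting (15 arrays), motif was 22.3, family 26.5, copies 14.6 and GC -3.28 (highest adjusted p = 0.0104, sign-flip permutation test). With at least 10 peaks of each kind (9 lists), overlap was 4.93, GC -2.48 and copies 12.2. Against nearer peaks outside genes, height was -0.0095, GC -1.01, copies 5.28 and family 7.63. Within batch 3, GC was -2.32, copies 21.5, motif 16.3 and family 16.2 over 7 lists, LINE-1 minus LTR was -0.62 over 12 lists and unique minus others -1.93 over 13 lists. Within batch 4 (10 lists), GC was -1.38 and family 14.4. The differences did not differ between batches 4 and 3 beyond the spread of the lists (lowest adjusted p = 0.884, exact permutation test). Height was -0.015 with mean log2 values, -0.047 without peaks with an exact copy and -0.14 with 1 peak per sequence family and list, where width was -0.31 (adjusted p = 0.0176, exact permutation test). The causes of these changes were not tested. Leaving out each KZFP in turn gave 0.0099 to 0.072 for height, -0.13 to -0.086 for width, -12.3 to -7.34 for overlap, -2.75 to -1.81 for GC, 10.8 to 14.4 for copies, 18.1 to 21.6 for motif, 16.4 to 21.0 for family, 0.54 to 1.90 for LINE-1 minus LTR and -2.81 to -2.15 for unique minus others. Far and nearer peaks were paired within lists, but no block by replicate could be fitted, since each KZFP has 1 library. Shares of lists under 100 peaks carry wide intervals.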
